A study of Homo sapiens with 36 samples.

Results

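Glutathione is made from glutamate, cysteine and glycine, and the genes described here are 8 that make it, feed it with cysteine, recycle it or use and degrade it: SLC7A11, GCLC, GCLM, GSS, GSR, GLRX, GGCT and GGT1. They were chosen by name, with earlier results of these data known, so their counts beside the share of all genes are a description only. The same holds for the lists of other genes. Each gene was read from the array probe sets whose platform symbol is that gene alone, and where a gene had several, the probe set brightest on average across the 36 arrays stands for it. Of the 8 genes, 7 had a probe set above the floor (a log2 value of 4 on at least 3 arrays) and were tested among 11092 genes in all. GGT1 was not.

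The cells were HK-2, a human line of renal proximal tubular epithelium that was immortalized with papillomavirus genes, so that every group is 1 line and not tissue. In the first of 2 sets of 18 arrays, cells received CdCl for 12 or 48 h, Di for 12 or 48 h, or the control vehicle for the same times. In the second set they received Kbr at a high or a low dose for 24 or 48 h, or the vehicle for 24 or 48 h. Each of the 12 groups held 3 arrays labelled as biological replicates, and within a set all treated groups of a time share 1 control group. The labels give the compounds by these abbreviations and give no concentrations, so CdCl, Di and Kbr are compared here as labelled exposures and not per dose.

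Glutathione synthesis runs in a pair of steps. Glutamate-cysteine ligase joins glutamate to cysteine and sets the rate. It consists of a catalytic subunit, GCLC, and a modifier subunit, GCLM, that raises its affinity for glutamate. Glutathione synthetase, GSS, then adds glycine. Most cultured cells obtain the cysteine by importing cystine through the exchanger of which SLC7A11 (xCT) is the transport subunit and SLC3A2 the heavy chain. Glutathione reductase, GSR, restores oxidized glutathione with NADPH, and glutaredoxin, GLRX, uses glutathione to reduce protein disulfides. GGCT acts on gamma-glutamyl dipeptides, and GGT1 breaks down glutathione outside the cell, an activity for which the proximal tubule brush border is known. The transcription factor NRF2, the product of NFE2L2, binds antioxidant response elements together with small MAF proteins and is the best known activator of GCLC, GCLM and SLC7A11. ATF4, a factor of the amino acid response, also acts on SLC7A11.

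The sequence just upstream of the start site is shown for both subunits of the rate-limiting enzyme, chosen because their RNAs moved by unequal amounts. Whether the sequence bears on those amounts was not tested. RefSeq's promoter table (GRCh38.p14) held entries for 4 of the 8 genes. Both windows hold the 250 bases before the start, given 5′ to 3′ on the gene's own strand. The capitals mark matches, on either strand, to the core of the antioxidant response element (TGACNNNGC), an AP-1 site (TGANTCA), the ATF4 element core (TGATGNAA), a TATA box (TATAAA) and a CCAAT box (CCAAT). GCLM lies on the minus strand at chr1:93909431-93909680.
GCLM: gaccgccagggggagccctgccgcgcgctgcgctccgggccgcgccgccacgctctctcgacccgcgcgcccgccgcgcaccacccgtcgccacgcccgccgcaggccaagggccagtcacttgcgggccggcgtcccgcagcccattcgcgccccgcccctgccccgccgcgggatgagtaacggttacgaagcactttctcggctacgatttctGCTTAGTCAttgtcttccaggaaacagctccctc
GCLC lies on the minus strand at chr6:53545102-53545351.
GCLC: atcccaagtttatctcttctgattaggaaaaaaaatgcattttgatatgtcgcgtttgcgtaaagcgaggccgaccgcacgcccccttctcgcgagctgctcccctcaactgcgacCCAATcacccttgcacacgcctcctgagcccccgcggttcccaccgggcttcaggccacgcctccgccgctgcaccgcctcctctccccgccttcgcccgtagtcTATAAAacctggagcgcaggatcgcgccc
In GCLM the single match is an antioxidant response element core on the opposite strand, at positions -34 to -26 from the start. In GCLC the matches are a CCAAT box at -134 to -130 and a TATA box at -29 to -24. A window of GGT1, not shown, also holds an antioxidant response element core, at -29 to -21. Among 35116 promoter windows of the table, counted with the short stretch after the start that the table includes, 13.3% hold an antioxidant response element core, 11.5% a TATA box and 34.6% a CCAAT box. Such matches describe letters and not bound sites, and the elements that are known for GCLC lie further upstream than this window. G and C made up 72.4% of the GCLM window and 60.8% of the GCLC window.

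The values are log2 expression from Affymetrix arrays. Arrays of 1 group correlated at r = 0.982 to 0.995 over the 20444 probe sets that name 1 gene and were above the floor on at least 3 arrays. No pair of arrays held identical values. The epithelial markers KRT8, KRT18, KRT19, EPCAM and CDH1 were above the floor in all groups. Of 12 proximal tubule markers on the array, only PAX8 and CDH6 were above it on at least 3 arrays. LRP2, CUBN, AQP1, SLC34A1 and ANPEP were at background in every group, so these genes were not detected. SLC3A1, a renal cystine carrier gene outside that list, was detected and is described below. None of 4 endothelial and none of 4 leukocyte markers were above it, against 3 of 6 fibroblast markers (COL1A1, DCN and LUM) and 1 of 4 of the distal nephron. The group average of the fibroblast list ran from 5.13 to 6.46, and the part of these markers in the results was not tested.

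Across the 8 comparisons with a matched control, GCLM rose in 8 and GCLC in 7. SLC7A11 and GSR rose in 6 each and fell in none. GSS and GGCT fell in 4 each and rose in none. GLRX fell in 4 and rose in 1. A call means an adjusted p below 0.05 in limma, with Benjamini-Hochberg adjustment over all genes tested.

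The share of all genes called sets the background for these counts. After 12 h of CdCl 5 of the 7 genes rose and 2 fell, where 43.9% of all genes were called, and after 48 h of CdCl 2 rose and 1 fell against 42.7%. With Di 1 gene rose at 12 h against 6.27%, and 4 rose and 2 fell at 48 h against 43%. With the high dose of Kbr 4 rose and 2 fell at 24 h against 40.7%, and 4 rose and 3 fell at 48 h against 61.8%. With the low dose 4 rose and 1 fell at 24 h against 15.2%, and again 4 rose and 1 fell at 48 h against 47%. The median difference over the 7 genes lay between -0.11 (Di, 12 h) and 1.96 (Di, 48 h), where the median over all genes lay between -0.16 and 0.00.

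**Figure D1:**
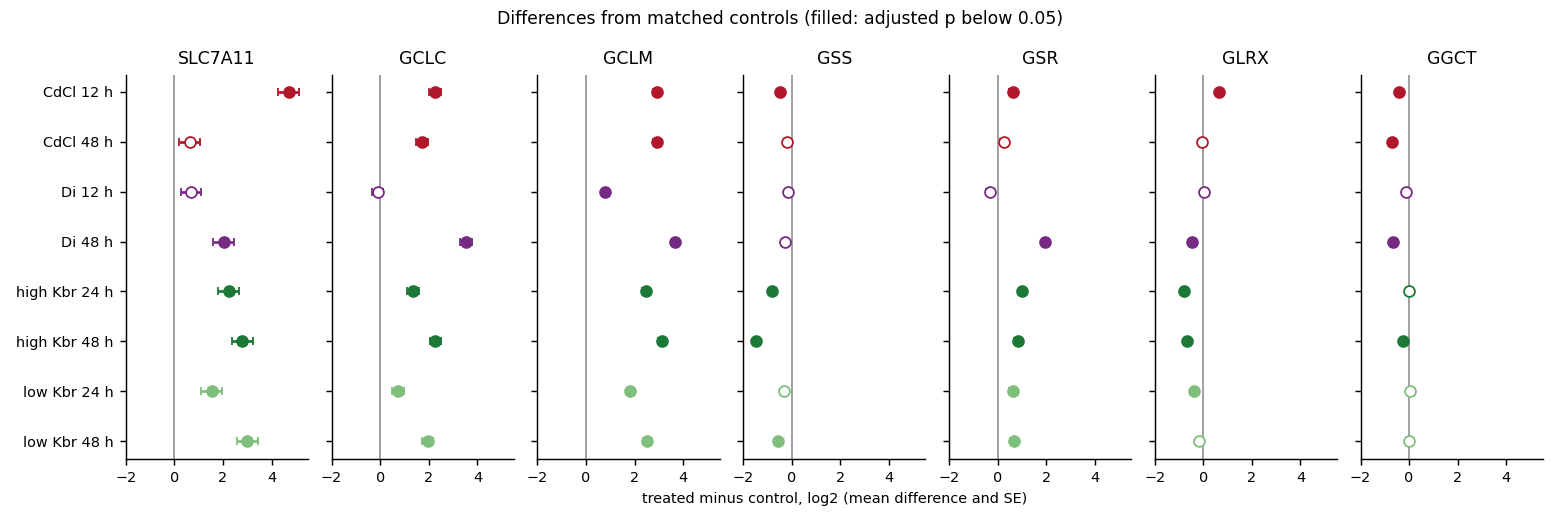
Log2 difference, treated minus matched control, of the 7 tested genes in the 8 comparisons (x axis, log2, values as deposited). Points are mean differences of 3 arrays against 3, filled where the adjusted p is below 0.05. Bars are the SE, with the spread of a gene pooled over all 12 groups. GCLM is filled in all 8 comparisons, and SLC7A11 spans the widest range, from 0.62 (CdCl, 48 h) to 4.70 (CdCl, 12 h).

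After 12 h of CdCl the median of all genes stood at -0.16, and the median change of the CdCl effect over time at 0.12. For both, the difference as deposited is given first, with the SE and adjusted p that belong to it, and then the value relative to the median. Log2 differences are followed by their SE throughout. This SE rests on 1 spread per gene pooled over all 12 groups, so it is equal in every comparison of 2 groups. It does not show the spread of the groups compared. For SLC7A11 the SD within groups ran from 0.07 (low Kbr, 24 h) to 1.34 (high Kbr, 48 h). Only the SE of the excess of GCLM over GCLC, given below, rests on the compared arrays alone.

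The largest single difference was that of SLC7A11, the RNA of a cystine importer, although GCLM rose more than SLC7A11 in most comparisons with control. SLC7A11 on chromosome 4 read 10.89, 11.15 and 11.25 after 12 h of CdCl, against 6.27, 6.21 and 6.69 in control cells. That is a difference of 4.70 ± 0.43 (adjusted p = 1.09e-09), or 4.86 relative to the median, the largest of any of the 7 genes in any of the 8 comparisons with control. At 48 h the CdCl arrays read 11.10, 11.03 and 11.29, against 10.37, 10.78 and 10.41 in control cells. The CdCl arrays covered like ranges at both times, and the controls were higher at 48 h. The 2 groups did not overlap at 48 h, but the difference of 0.62 ± 0.43 did not pass (adjusted p = 0.253). It passed with the spread taken from the CdCl and Di set alone (adjusted p = 0.0272).

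With Di SLC7A11 was called at 48 h. At 12 h it read 7.24, 6.50 and 7.46 with Di, against 6.27, 6.21 and 6.69 in control cells, groups that overlapped (0.68 ± 0.43, adjusted p = 0.373). With array weights, which count arrays of wide spread less, that difference was 0.97 (adjusted p = 0.00531). At 48 h it read 12.24, 12.60 and 12.78 with Di, against 10.37, 10.78 and 10.41 in control cells, and was 4.06-fold higher (2.02 ± 0.43, adjusted p = 0.000318). Every Di array at 48 h stood above every other array of the series for this gene.

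Kbr raised SLC7A11 at both doses and both times. At 24 h the high dose read 9.19, 9.25 and 8.56 and the control 6.68, 6.80 and 6.82, a 4.70-fold difference (2.23 ± 0.43, adjusted p = 0.000142). The low dose read 8.37, 8.30 and 8.23 against the same controls and was 2.89-fold higher (1.53 ± 0.43, adjusted p = 0.0150). Without control replicate 1 the call for the low dose was lost (1.49, adjusted p = 0.0594), as it was in the fit to the Kbr set alone (adjusted p = 0.0945). It passed with the replicate number as a block (adjusted p = 0.00195).

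At 48 h the third replicate stood apart in both doses. The high dose read 11.56, 11.72 and 9.31, against 8.81, 7.85 and 7.56 in control cells (2.79 ± 0.43, adjusted p = 2.35e-06). The low dose read 11.44, 11.73 and 10.05 against the same controls (3.00 ± 0.43, adjusted p = 2.10e-06). All treated arrays were above all controls. Without the third high-dose replicate the difference was 3.56, and without the third low-dose replicate it was 3.51. Same-numbered arrays of this set deviated together, as described under the processing, and with the replicate number as a block the SE of both differences fell to 0.34.

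SLC7A11 had further probe sets. The next brightest probe set gave the same calls in all 8 comparisons. The dimmest probe set, which was above the floor on 18 of 36 arrays, also passed for CdCl at 48 h (1.45 ± 0.37, adjusted p = 0.00246). In the other comparisons with a group below the floor it gives no size.

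**Figure D2:**
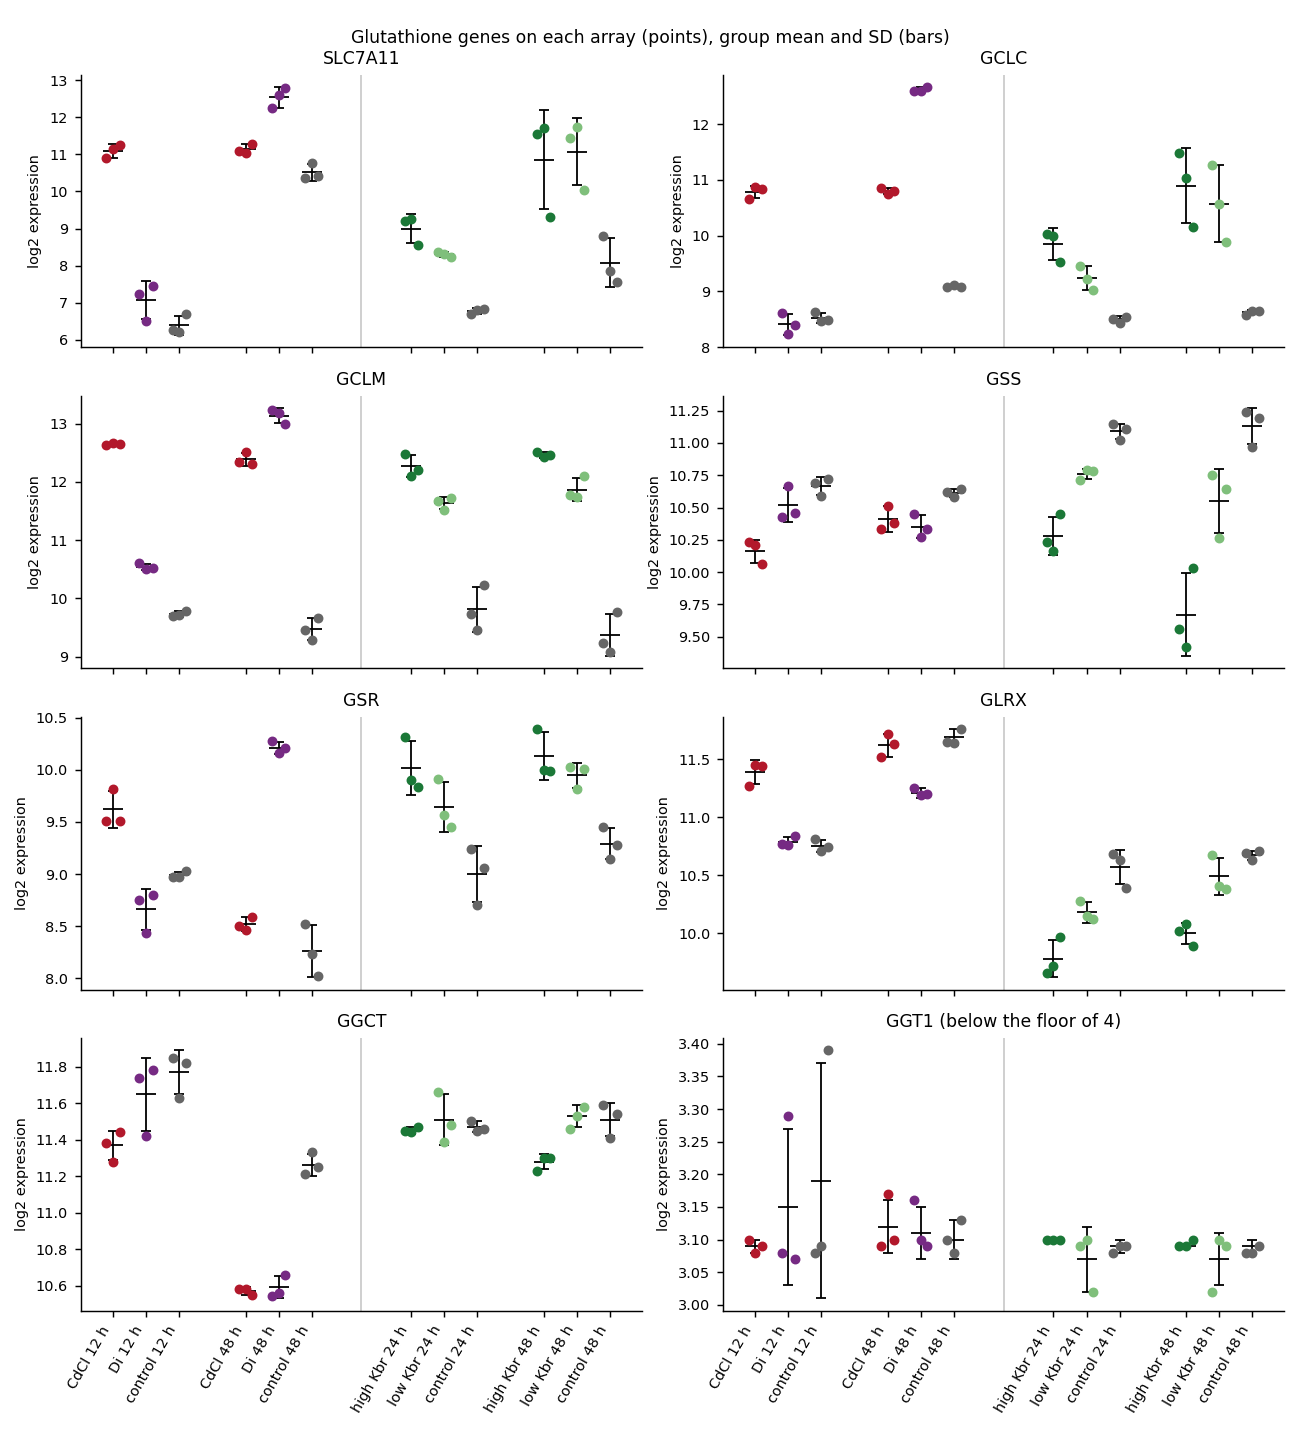
Log2 expression (y axis) of the 8 genes in the 12 groups (x axis; the CdCl and Di set left of the grey line, the Kbr set right of it); points are single arrays, bars the mean and SD of 3. SLC7A11 was above 10 in all CdCl arrays at both times, whereas control arrays of that set were below 7 at 12 h and above 10 at 48 h; GGT1 stayed between 3.02 and 3.39.

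The catalytic subunit GCLC, on chromosome 6, rose in all comparisons except Di at 12 h. After 12 h of CdCl it read 10.65, 10.87 and 10.83, against 8.63, 8.46 and 8.49 in control cells (2.26 ± 0.24, adjusted p = 2.16e-08, or 2.42 relative to the median). At 48 h CdCl arrays read 10.86, 10.75 and 10.80, against 9.08, 9.12 and 9.08 in control cells, a 3.26-fold difference (1.71 ± 0.24, adjusted p = 1.53e-06). Treated and control arrays were far apart at both times.

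With Di at 12 h GCLC read 8.61, 8.23 and 8.40, within the range of the control arrays at 8.63, 8.46 and 8.49 or just below it (-0.11 ± 0.24, adjusted p = 0.843). At 48 h it read 12.60, 12.60 and 12.67 with Di, against 9.08, 9.12 and 9.08 in control cells. This 11.5-fold difference (3.53 ± 0.24, adjusted p = 1.42e-12) was the largest of GCLC, and no other group reached that level. The dimmest GCLC probe set was above the floor only on 2 Di arrays at 48 h (5.48 and 6.32).

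With the high dose of Kbr GCLC read 10.03, 9.99 and 9.53 at 24 h, against 8.51, 8.44 and 8.54 in control cells (2.56-fold, 1.36 ± 0.24, adjusted p = 5.71e-05). At 48 h it read 11.49, 11.04 and 10.15, against 8.58, 8.65 and 8.64 in control cells (4.82-fold, 2.27 ± 0.24, adjusted p = 4.49e-09). The low dose read 11.27, 10.56 and 9.89 at 48 h and was 3.86-fold above the same controls (1.95 ± 0.24, adjusted p = 2.38e-07). In both doses the third replicate was lowest at 48 h, as for SLC7A11.

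The rise at 24 h of the low dose was the least certain of the 7. GCLC read 9.46, 9.23 and 9.02, against 8.51, 8.44 and 8.54 in control cells (1.67-fold, 0.74 ± 0.24, adjusted p = 0.0360). The groups did not overlap, but the call was lost in 5 of 6 fits that left out 1 array (largest adjusted p = 0.127, without low-dose replicate 1). It was also lost by the other probe set (0.65, adjusted p = 0.0857). The call held with the replicate block (adjusted p = 0.00611).

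The modifier subunit GCLM, on chromosome 1, was the only one of the 7 genes called in all 8 comparisons. CdCl at 12 h gave 12.63, 12.67 and 12.66, against 9.69, 9.72 and 9.79 in control cells (2.92 ± 0.15, adjusted p = 1.02e-14, or 3.08 relative to the median). After 48 h of CdCl it read 12.35, 12.52 and 12.31, against 9.46, 9.29 and 9.67 in control cells (7.55-fold, 2.92 ± 0.15, adjusted p = 1.01e-14). Replicates of GCLM lay close together, and no treated array came near a control array.

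Di raised GCLM early. It read 10.60, 10.50 and 10.52 at 12 h, against 9.69, 9.72 and 9.79 in control cells (1.75-fold, 0.80 ± 0.15, adjusted p = 0.00220), the single call among the 7 genes in that comparison. The next brightest GCLM probe set gave 0.65 there and did not pass (adjusted p = 0.0592). At 48 h GCLM read 13.24, 13.19 and 12.99 with Di, against 9.46, 9.29 and 9.67 in control cells (12.7-fold, 3.67 ± 0.15, adjusted p = 5.99e-17). This was the highest level of GCLM in the series, with no overlap with the next group.

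With Kbr the rise of GCLM was ordered by dose. At 24 h the high dose read 12.48, 12.11 and 12.21 and the low dose 11.68, 11.52 and 11.72, and the controls read 9.73, 9.46 and 10.23. The differences from control were 5.49-fold for the high dose (2.46 ± 0.15, adjusted p = 2.94e-12) and 3.56-fold for the low dose (1.83 ± 0.15, adjusted p = 7.71e-09). At 48 h the high dose read 12.52, 12.43 and 12.47 and the low dose 11.78, 11.75 and 12.10, and the controls read 9.24, 9.08 and 9.77. The differences were then 8.61-fold (3.11 ± 0.15, adjusted p = 2.73e-15) and 5.69-fold (2.51 ± 0.15, adjusted p = 1.96e-12).

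GCLM changed more than GCLC on average over the 2 times of each compound or dose. The test used first exchanges arrays freely within a time, which ignores the shared deviations of same-numbered Kbr arrays. The per-array difference of the log2 values of both subunits was compared between treated and control arrays, averaged over the 2 times of each compound or dose, with an exact two-sided permutation test that exchanged labels within each time (400 arrangements, smallest p = 0.00500) and adjustment over the 4 tests. The rise of GCLM exceeded that of GCLC by 0.94 ± 0.09 with CdCl (exact p = 0.00500, adjusted p = 0.0200). The excess was 0.53 ± 0.10 with Di (exact p = 0.0300, adjusted p = 0.0300). With Kbr it was 0.97 ± 0.25 at the high dose (exact p = 0.0100, adjusted p = 0.0200) and 0.83 ± 0.30 at the low dose (exact p = 0.0300, adjusted p = 0.0300).

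The excess was not even over time. It was 1.21 ± 0.15 at 48 h and 0.66 ± 0.09 at 12 h with CdCl, but 0.14 ± 0.16 at 48 h and 0.92 ± 0.11 at 12 h with Di. Treated and control arrays overlapped in this difference with Di at 48 h and with both doses of Kbr at 48 h, and in no other comparison. Exchanging labels only within pairs of equal replicate number, which suits the Kbr set, allows no p below 0.0312 and left adjusted p at 0.0625 for the high and 0.0833 for the low dose. Without the third low-dose replicate at 48 h the low-dose excess was 0.60 (permutation, adjusted p = 0.0550). The low-dose call was also lost without control replicate 1 (0.81) or control replicate 2 (0.75) at 48 h. Both values are probe set readings on a compressed scale, so the unequal size concerns these probe sets.

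**Figure D3:**
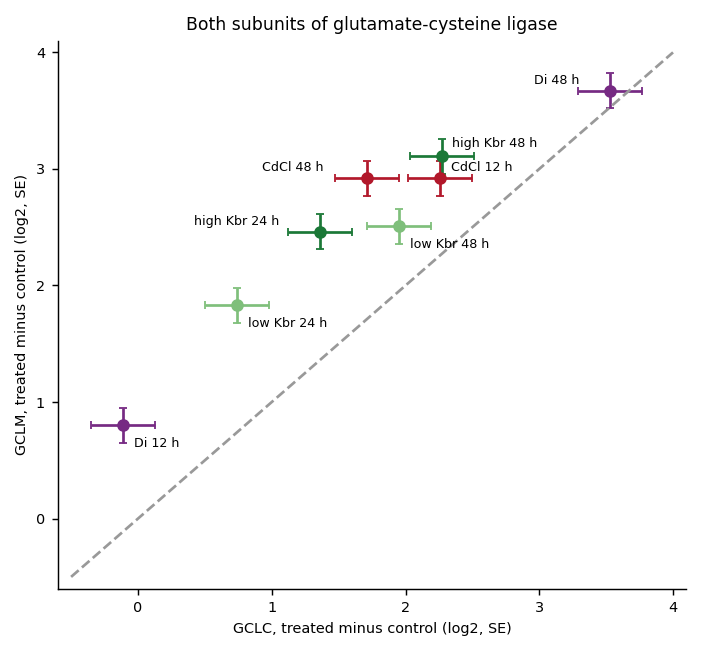
Log2 difference from control of GCLM (y axis) against that of GCLC (x axis) in the 8 comparisons, with SE bars; the dashed line marks equal change. All 8 points lie above the line, and Di at 48 h, at 3.53 for GCLC and 3.67 for GCLM, lies closest to it.

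GSS, the enzyme of the last step on chromosome 20, did not rise in any comparison. Its lowest level was that of the high dose of Kbr at 48 h, 9.56, 9.42 and 10.03, against 11.24, 10.97 and 11.19 in control cells, a 2.75-fold lower value (-1.46 ± 0.12, adjusted p = 6.72e-11). At 24 h the high dose read 10.23, 10.16 and 10.45, against 11.15, 11.02 and 11.11 in control cells (-0.82 ± 0.12, adjusted p = 7.66e-06). Treated and control arrays did not overlap at either time.

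The low dose of Kbr lowered GSS less. At 48 h it read 10.75, 10.26 and 10.64, against 11.24, 10.97 and 11.19 in control cells (-0.58 ± 0.12, adjusted p = 0.000356). At 24 h the difference of -0.33 ± 0.12 missed the threshold (adjusted p = 0.0663) and passed with the replicate block (adjusted p = 0.0218). It also passed with the other probe set (-0.35, adjusted p = 0.0142).

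In the other set GSS fell after 12 h of CdCl, to 10.23, 10.21 and 10.06, against 10.69, 10.59 and 10.72 in control cells (-0.50 ± 0.12, adjusted p = 0.00160). With arrays centred on the median of the genes tested it was -0.35 ± 0.14 and just passed (adjusted p = 0.0484). The differences at 48 h were -0.21 ± 0.12 for CdCl (adjusted p = 0.182) and -0.27 ± 0.12 for Di (adjusted p = 0.0825). The call for Di was gained under 6 other settings, among them the fit to that set alone (adjusted p = 0.0136). With Di at 12 h it was -0.15 ± 0.12 (adjusted p = 0.530). In the 4 of 8 comparisons in which GSS was called, it moved against the ligase subunits. It was not called with Di at 48 h, where both subunits rose most. Across all 36 arrays its values, centred within each set, correlated with those of GCLM at r = -0.69. That is a description over arrays that share groups and controls.

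GSR, the reductase on chromosome 8, rose most with Di at 48 h, where it read 10.28, 10.16 and 10.21, against 8.52, 8.23 and 8.02 in control cells (3.89-fold, 1.96 ± 0.15, adjusted p = 2.65e-11). CdCl at 12 h gave 9.51, 9.82 and 9.51, against 8.97, 8.97 and 9.03 in control cells (0.63 ± 0.15, adjusted p = 0.00156, or 0.79 relative to the median). Both groups of treated arrays were clear of their controls. With Kbr the differences were 1.02 ± 0.15 at 24 h and 0.84 ± 0.15 at 48 h for the high dose, and 0.64 ± 0.15 and 0.66 ± 0.15 for the low dose (adjusted p = 7.20e-06, 2.98e-05, 0.00512 and 0.000857).

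GSR did not pass after 48 h of CdCl, at 8.50, 8.46 and 8.59 against 8.52, 8.23 and 8.02 in control cells (0.26 ± 0.15, adjusted p = 0.178). With Di at 12 h it read 8.75, 8.43 and 8.80, all below the controls at 8.97, 8.97 and 9.03 (-0.33 ± 0.15, adjusted p = 0.197). There its other probe set gave 0.24 ± 0.16 (adjusted p = 0.382), so the direction at 12 h of Di is not settled. That is also the comparison in which the 3′ to 5′ reading of actin, a measure of RNA integrity, differed most, at 1.40 ± 0.16 with Di and 1.84 ± 0.14 in control cells (SD, n = 3 each). Its part in the results was not tested.

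GLRX, on chromosome 5, rose only after 12 h of CdCl, and all of its falls came at 24 or 48 h. At no time did it rise with an exposure and fall with another. After 12 h of CdCl it read 11.27, 11.45 and 11.44, against 10.81, 10.71 and 10.74 in control cells (0.63 ± 0.09, adjusted p = 2.96e-06, or 0.79 relative to the median). At 48 h CdCl arrays read 11.52, 11.72 and 11.63 and overlapped with controls at 11.65, 11.64 and 11.76 (-0.06 ± 0.09, adjusted p = 0.612). As with SLC7A11, the control itself was higher at 48 h.

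With Di GLRX fell at 48 h, to 11.25, 11.19 and 11.20, against 11.65, 11.64 and 11.76 in control cells (-0.47 ± 0.09, adjusted p = 0.000110), and differed by 0.04 ± 0.09 at 12 h (adjusted p = 0.863). With the high dose of Kbr it read 9.66, 9.72 and 9.97 at 24 h, against 10.68, 10.63 and 10.39 in control cells (-0.78 ± 0.09, adjusted p = 1.85e-07). At 48 h the high dose read 10.02, 10.08 and 9.89, against 10.69, 10.63 and 10.71 in control cells (-0.68 ± 0.09, adjusted p = 3.06e-07). The low dose fell at 24 h (-0.38 ± 0.09, adjusted p = 0.00514). The other GLRX probe set did not pass for the low dose at 24 h (-0.29, adjusted p = 0.0794). At 48 h the low-dose difference was -0.19 ± 0.09 (adjusted p = 0.0921), with overlap, and it passed without low-dose replicate 1 (-0.28, adjusted p = 0.0190).

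GGCT, on chromosome 7 and read by a single probe set, fell with CdCl at both times and with Di at 48 h. It read 10.58, 10.58 and 10.55 after 48 h of CdCl and 10.54, 10.56 and 10.66 after 48 h of Di, against 11.21, 11.33 and 11.25 in control cells. Both differences were near 1.6-fold (-0.69 ± 0.09 with adjusted p = 1.83e-07 for CdCl, -0.67 ± 0.09 with adjusted p = 2.31e-07 for Di), and no treated array overlapped with a control. CdCl at 12 h gave 11.38, 11.28 and 11.44, against 11.85, 11.63 and 11.82 in control cells (-0.40 ± 0.09, adjusted p = 0.000448). With arrays centred on the median of the genes tested it was -0.24 ± 0.08 (adjusted p = 0.0204).

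Among the Kbr comparisons GGCT passed only for the high dose at 48 h (-0.24 ± 0.09, adjusted p = 0.0183). That call was lost without high-dose replicate 1 (-0.21, adjusted p = 0.0598), without control replicate 1 (-0.20, adjusted p = 0.0797) and with arrays centred on the median of the genes tested (-0.14, adjusted p = 0.142). The other 3 Kbr differences lay between -0.02 and 0.04, and that of Di at 12 h was -0.12 ± 0.09 (adjusted p = 0.450).

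GGT1, on chromosome 22, had 1 probe set, which read between 3.02 and 3.39 on all 36 arrays and never exceeded the floor. No level or difference is given for it.

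Control cells changed with time in the genes of cystine import. SLC7A11 read 10.37, 10.78 and 10.41 in controls at 48 h, against 6.27, 6.21 and 6.69 in controls at 12 h, a 17.5-fold difference (4.13 ± 0.43, adjusted p = 8.87e-09). GLRX was also higher in the later controls (0.93 ± 0.09, adjusted p = 3.09e-09). GSR (-0.73 ± 0.15, adjusted p = 0.000285) and GGCT (-0.50 ± 0.09, adjusted p = 2.19e-05) were lower. Of the 7 genes 4 passed, where 45.7% of all genes did. The fall of GSR was not called with its other probe set (-0.12, adjusted p = 0.593). GCLC (0.57 ± 0.24, adjusted p = 0.0546) did not pass here but passed in 7 alternative settings, among them the fit to that set alone (adjusted p = 8.06e-05). The dimmer GCLM probe sets were lower in the later controls (-1.08 with the dimmest, adjusted p = 6.64e-05, and -0.68 with the other, adjusted p = 0.0108), where the main one gave -0.26.

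In the Kbr set, where controls were 24 h apart in time, SLC7A11 read 8.81, 7.85 and 7.56 at 48 h, against 6.68, 6.80 and 6.82 at 24 h (1.31 ± 0.43, adjusted p = 0.0428). It was the single call among the 7 genes, where 12.2% of all genes passed. The call was lost in 5 of 6 fits that left out 1 array, with the smallest value, 0.94, without control replicate 1 at 48 h (adjusted p = 0.251). With the replicate block it passed at adjusted p = 0.00706, and so did GCLM, which was lower in the later controls (-0.44, adjusted p = 0.0141).

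**Figure D4:**
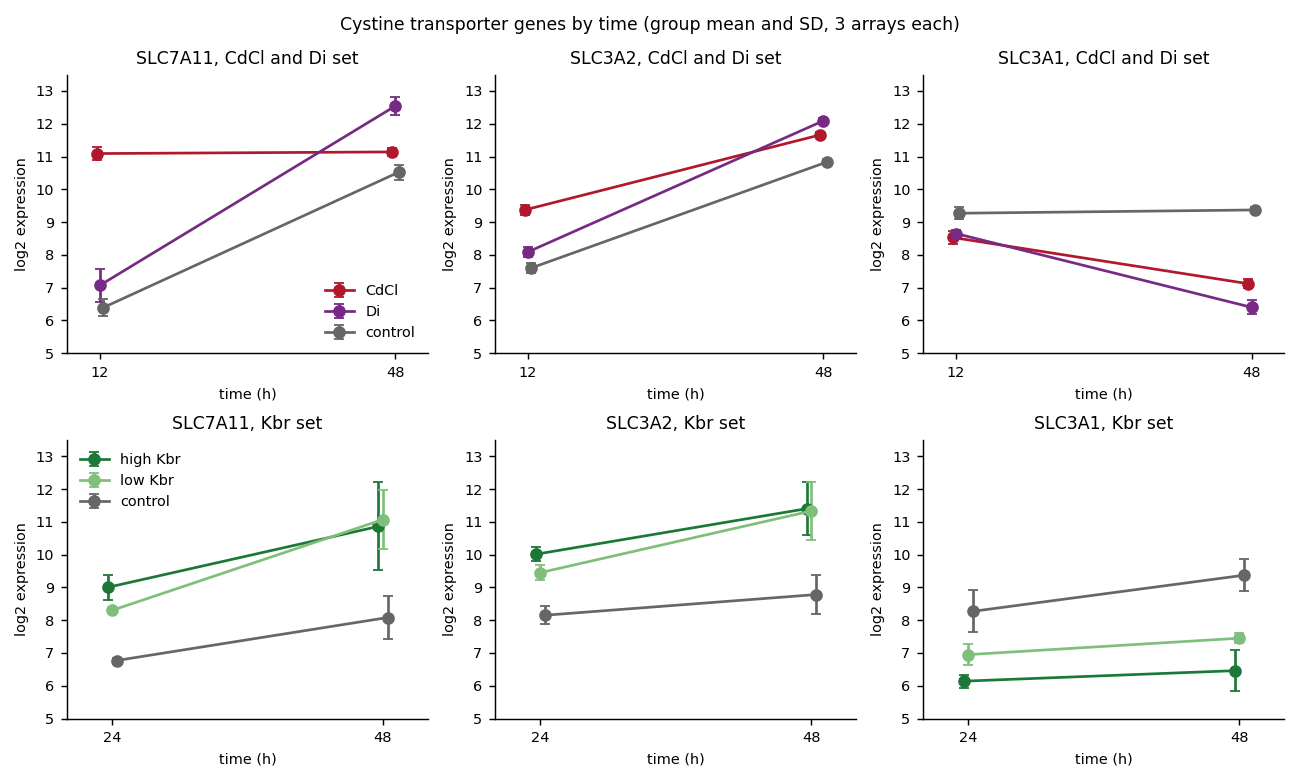
Log2 expression (y axis; group mean and SD, 3 arrays each) of SLC7A11, SLC3A2 and SLC3A1 by time (x axis, h) in the CdCl and Di set (top) and the Kbr set (bottom). In the top row SLC7A11 with CdCl is level at about 11.1 while controls are at 10.52 at 48 h and 6.39 at 12 h; SLC3A1 lies below control in every treated group.

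Whether an exposure acted differently at its 2 times was tested as the difference of the differences. For CdCl 2 of the 7 genes passed, where 24.2% of all genes did: the effect on SLC7A11 was lower at 48 h than at 12 h (-4.08 ± 0.60, adjusted p = 2.23e-05, or -4.20 relative to the median), and so was that on GLRX (-0.70 ± 0.13, adjusted p = 0.000296, or -0.82 relative to the median). The change for GCLM did not pass (SE 0.22, adjusted p = 0.994). With arrays centred on the median of the genes tested, GGCT passed as well (-0.43, adjusted p = 0.00816). For Di 5 passed, where 29% of all genes did. Its effect was larger at 48 h for GCLC (3.64 ± 0.34, adjusted p = 3.41e-09), GCLM (2.86 ± 0.22, adjusted p = 6.45e-11) and GSR (2.29 ± 0.22, adjusted p = 4.58e-09). It was lower for GLRX (-0.51 ± 0.13, adjusted p = 0.00348) and GGCT (-0.56 ± 0.12, adjusted p = 0.000861). For SLC7A11 the difference of 1.34 ± 0.60 did not pass (adjusted p = 0.0977).

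For the high dose of Kbr 2 passed, where 15% of all genes did: GCLM (0.65 ± 0.22, adjusted p = 0.0447) and GSS (-0.65 ± 0.17, adjusted p = 0.0124). For the low dose 1 passed, GCLC (1.21 ± 0.34, adjusted p = 0.0401), where 4.35% of all genes did. In the fit with no replicate block these calls were near the threshold. GCLM for the high dose was not called with either other probe set (0.32 and 0.64). GCLC for the low dose was not called with the other kept one (0.96, adjusted p = 0.128). With the block GCLM (adjusted p = 0.0111) and GSS (adjusted p = 0.00286) passed for the high dose, and GCLC (adjusted p = 0.00626) for the low dose. GCLC then also passed for the high dose (0.91, adjusted p = 0.0154), and GCLM (0.68, adjusted p = 0.0181) and SLC7A11 (1.47, adjusted p = 0.0494) for the low dose. Leaving out 1 array brought the number of genes called to between 0 and 3 for the high dose and between 0 and 2 for the low dose.

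The 2 doses of Kbr differed in 3 of the 7 genes at 24 h, where 4.39% of all genes were called, and in 4 at 48 h, where 23.8% were. GCLM was higher at the high dose by 0.63 ± 0.15 at 24 h (adjusted p = 0.0173) and by 0.60 ± 0.15 at 48 h (adjusted p = 0.00551). GSS was lower by 0.48 ± 0.12 at 24 h (adjusted p = 0.0220) and by 0.88 ± 0.12 at 48 h (adjusted p = 6.85e-06). GLRX was lower by 0.40 ± 0.09 at 24 h (adjusted p = 0.0113) and by 0.49 ± 0.09 at 48 h (adjusted p = 0.000260), and GGCT by 0.25 ± 0.09 at 48 h (adjusted p = 0.0353). The GGCT call was lost in 5 of 6 fits that left out 1 array (largest adjusted p = 0.0977, without low-dose replicate 3), in the fit to the compared groups alone (adjusted p = 0.144) and with arrays centred on the median of the genes tested (-0.12, adjusted p = 0.288). It passed with the replicate block (adjusted p = 0.0171). The fit to the compared groups alone also lost GSS (adjusted p = 0.0642) and GLRX (adjusted p = 0.0690) at 48 h.

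SLC7A11 did not differ detectably between the doses, at 0.70 ± 0.43 at 24 h (adjusted p = 0.424) and -0.21 ± 0.43 at 48 h (adjusted p = 0.785). Without the third high-dose replicate the value at 48 h was 0.57 and without the third low-dose replicate -0.72, and without low-dose replicate 2 it was 0.12, so its sign depends on single arrays. GCLC differed by 0.62 ± 0.24 at 24 h, which passed only with the replicate block (adjusted p = 0.0377) or array weights (adjusted p = 0.0263). GSR differed by 0.37 ± 0.15 at 24 h (adjusted p = 0.175) and passed with the replicate block (adjusted p = 0.0391) or centred on the genes tested (0.46, adjusted p = 0.0460). The calls at 24 h depended on the fit. With the replicate block GCLM (adjusted p = 0.00261), GSS (adjusted p = 0.00459) and GLRX (adjusted p = 0.00571) passed. In the fits with no block they were fragile. Without high-dose replicate 1 or low-dose replicate 1 none of the 7 genes passed. None passed in the fits to the Kbr set alone or to the compared groups alone. Without high-dose replicate 2 or low-dose replicate 2, 1 passed. With arrays centred on the median of the genes tested, GSS (-0.40, adjusted p = 0.107) and GLRX (-0.31, adjusted p = 0.0652) were not called at 24 h. The dimmest GCLM probe set passed at neither time (0.62, adjusted p = 0.0969, and 0.50, adjusted p = 0.0752), and the next brightest did not pass at 48 h (0.55, adjusted p = 0.0693), so 1 of 3 GCLM probe sets was called there.

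CdCl and Di cells differed from each other in all 7 genes at 12 h, where 35.6% of all genes were called, and in 5 at 48 h, where 37.6% were. At 12 h the largest difference was that of SLC7A11, 16.3-fold higher with CdCl (4.02 ± 0.43, adjusted p = 2.42e-08), followed by GCLC (2.37 ± 0.24, adjusted p = 9.73e-09) and GCLM (2.12 ± 0.15, adjusted p = 1.74e-11). At 48 h the order was turned: GCLC was 3.54-fold lower with CdCl (-1.82 ± 0.24, adjusted p = 8.97e-07), GSR 3.24-fold lower (-1.70 ± 0.15, adjusted p = 1.18e-09), SLC7A11 2.63-fold lower (-1.40 ± 0.43, adjusted p = 0.0109) and GCLM 1.68-fold lower (-0.75 ± 0.15, adjusted p = 0.000349). GLRX was higher with CdCl (0.41 ± 0.09, adjusted p = 0.000794). GSS and GGCT differed at 12 h only, by -0.36 ± 0.12 and -0.28 ± 0.09 (adjusted p = 0.0245 and 0.0116). The call for GSS at 12 h was lost without CdCl replicate 3 or Di replicate 2, and that for GGCT without CdCl replicate 2, Di replicate 1 or Di replicate 3. Concentrations are not known, so these are differences of the exposures as given.

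Genes that supply cystine and cysteine gave a split picture. Of 8 listed precursors and partners 6 were measured. SLC3A2, the heavy chain that carries SLC7A11 to the membrane, rose in 7 of 8 comparisons, by 2.62 ± 0.32 with the high dose of Kbr at 48 h (adjusted p = 6.55e-08) and by 0.83 ± 0.32 after 48 h of CdCl (adjusted p = 0.0384). Di at 12 h gave 0.49 ± 0.32 (adjusted p = 0.402). Like SLC7A11 it was higher in controls at 48 h than at 12 h (3.23 ± 0.32, adjusted p = 4.44e-09).

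SLC3A1, the heavy chain of the renal cystine and dibasic amino acid carrier, fell in 7 of 8, by 2.98 ± 0.26 with Di at 48 h (adjusted p = 2.75e-10), by 2.90 ± 0.26 with the high dose of Kbr at 48 h (adjusted p = 2.43e-10) and by 2.25 ± 0.26 after 48 h of CdCl (adjusted p = 6.52e-08). Its values in the single exception, Di at 12 h, averaged 8.65 ± 0.11 with Di and 9.27 ± 0.19 in control cells (SD, n = 3 each). CTNS, the lysosomal cystine exporter, rose after 48 h of CdCl (1.01 ± 0.16, adjusted p = 1.41e-05) and 48 h of the low dose of Kbr (0.63 ± 0.16, adjusted p = 0.00249). The neutral amino acid transporter SLC1A4 fell with the high dose of Kbr (-1.40 ± 0.48 at 24 h and -1.57 ± 0.48 at 48 h). At 48 h its high-dose arrays ran from 4.51 to 7.47 and overlapped with controls at 7.31 to 8.41. The glutamine transporter SLC1A5 fell after 48 h of CdCl (-0.61 ± 0.22, adjusted p = 0.0282). The glutamate and cysteine transporter SLC1A1 averaged 3.33 ± 0.46 after 48 h of CdCl and 2.94 ± 0.04 after 48 h of Di, both below the floor, and 4.24 ± 1.12 in control cells (SD, n = 3 each; adjusted p = 0.0474 and 0.00490), so no size is given.

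Of 6 measured genes of transsulfuration, the route that makes cysteine from methionine, 4 fell and 1 rose after 12 h of CdCl, where 3386 of all genes fell and 1484 rose. After 48 h of CdCl 4 fell and 0 rose, where 2443 of all genes fell and 2292 rose. With the high dose of Kbr at 48 h 4 fell and 1 rose, where 3824 of all genes fell and 3031 rose. CBS, which forms cystathionine, averaged 5.55 ± 0.34 with the high dose of Kbr at 48 h and 8.59 ± 0.35 in control cells (SD, n = 3 each; -3.04 ± 0.24, adjusted p = 1.66e-11). CTH, which releases cysteine from cystathionine, rose in 3 comparisons, by 2.67 ± 0.51 with the low dose of Kbr at 48 h (adjusted p = 9.78e-05), by 2.08 ± 0.51 with the high dose at 48 h (adjusted p = 0.000831) and after 12 h of CdCl (adjusted p = 0.00831). The high-dose arrays at 48 h ran from 8.22 to 11.34 and overlapped with controls at 7.65 to 8.70. MAT2A, which makes S-adenosylmethionine, fell in 5, most with Di at 48 h (-0.86 ± 0.12, adjusted p = 1.32e-06).

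Among 6 measured genes of glutathione breakdown, CHAC2, a cytosolic glutathione-degrading enzyme, rose in all 4 Kbr comparisons (1.20 ± 0.20 for the high dose at 48 h, adjusted p = 6.43e-06). OPLAH, the 5-oxoprolinase, averaged 2.56 ± 0.12 with the high dose at 48 h, below the floor, and 4.58 ± 0.33 in control cells (SD, n = 3 each; adjusted p = 1.49e-05), so no size is given. CHAC1, an inducible relative of CHAC2, passed once (low dose of Kbr, 48 h, 1.71 ± 0.51, adjusted p = 0.00690, with overlap between groups).

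Of 7 measured peroxidases and other glutaredoxins, GLRX3, a glutaredoxin of iron-sulfur cluster handling, rose in 8 of 8 comparisons, by 0.39 ± 0.12 with Di at 12 h (adjusted p = 0.0422) and by 1.25 ± 0.12 after 48 h of CdCl (adjusted p = 1.23e-09). The mitochondrial GLRX2 rose in 7. The secreted peroxidase GPX3 fell in all 4 comparisons at 48 h, by 1.65 ± 0.12 with CdCl (adjusted p = 5.38e-12) and 1.64 ± 0.12 with Di (adjusted p = 4.21e-12).

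All 4 genes of the glyoxalase and formaldehyde list were measured. HAGH, which completes methylglyoxal removal, fell with the high dose of Kbr at 24 h (-1.03 ± 0.15, adjusted p = 5.63e-06) and 48 h (-1.17 ± 0.15, adjusted p = 1.67e-07). ESD, an esterase of formaldehyde removal, fell in 6 comparisons and GLO1, which starts methylglyoxal removal, rose in 3, all with Kbr.

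Of 5 transport genes, the glutathione conjugate exporter ABCC1 rose with CdCl at both times and with Di at 48 h (1.44 ± 0.12, adjusted p = 1.15e-10). ABCC2, an apical exporter of the tubule, averaged 5.55 ± 0.43 after 12 h of CdCl and 2.49 ± 0.03 in control cells (SD, n = 3 each), where it was below the floor. The mitochondrial glutathione carrier SLC25A39 passed once, after 48 h of CdCl (0.90 ± 0.22, adjusted p = 0.00148).

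All 6 regulators were measured. The small MAF gene MAFF rose in 6 of 8 comparisons, to 13.39 ± 0.10 after 12 h of CdCl, against 9.82 ± 0.08 in control cells (SD, n = 3 each). MAFG rose in 6 as well, most with the high dose of Kbr at 48 h (1.85 ± 0.22, adjusted p = 4.00e-08). NFE2L2 RNA rose only with Kbr at 48 h (0.90 ± 0.19 at the high dose, adjusted p = 0.000129, and 0.77 ± 0.19 at the low dose, adjusted p = 0.00124). It fell after 48 h of CdCl (-0.69 ± 0.19, adjusted p = 0.00348), a comparison in which GCLM was 7.55-fold higher. These are RNA levels, and a link between them was not tested.

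KEAP1, which targets NRF2 for degradation, fell after 12 h of CdCl (adjusted p = 5.69e-05). It rose with Di at 48 h (1.09 ± 0.16, adjusted p = 1.96e-06) and in all 4 Kbr comparisons. BACH1, a repressor at antioxidant response elements, rose after 12 h of CdCl (adjusted p = 4.85e-05) and with Di at 48 h (0.70 ± 0.11, adjusted p = 1.04e-05) and fell with Kbr at 24 h at both doses. ATF4 rose in 7 comparisons, by at most 0.59 ± 0.09 as deposited (low dose of Kbr, 48 h), and fell after 48 h of CdCl (-0.35 ± 0.09, adjusted p = 0.00214). In control cells ATF4 was higher at 48 h than at 12 h by 1.72 ± 0.09 (adjusted p = 1.79e-14). Control SLC7A11 and SLC3A2 were also higher, in a comparison where 45.7% of all genes were called. A link between these genes was not tested.

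Over all 7 lists 40 of 49 genes were measured. After 12 h of CdCl 10 rose and 13 fell, 57.5% against 43.9% of all genes, and after 48 h 10 rose and 14 fell, 60% against 42.7%. With Di 2 rose and 0 fell at 12 h, 5% against 6.27%, and 10 rose and 12 fell at 48 h, 55% against 43%. The high dose of Kbr gave 10 up and 11 down at 24 h, 52.5% against 40.7%, and 13 up and 16 down at 48 h, 72.5% against 61.8%. The low dose gave 7 up and 3 down at 24 h, 25% against 15.2%, and 14 up and 9 down at 48 h, 57.5% against 47%. Medians over the 40 genes lay between -0.17 and 0.05, and those of all genes between -0.16 and 0.00. They were furthest apart after 48 h of CdCl, at -0.17 for the 40 genes and -0.01 for all genes.

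**Figure D5:**
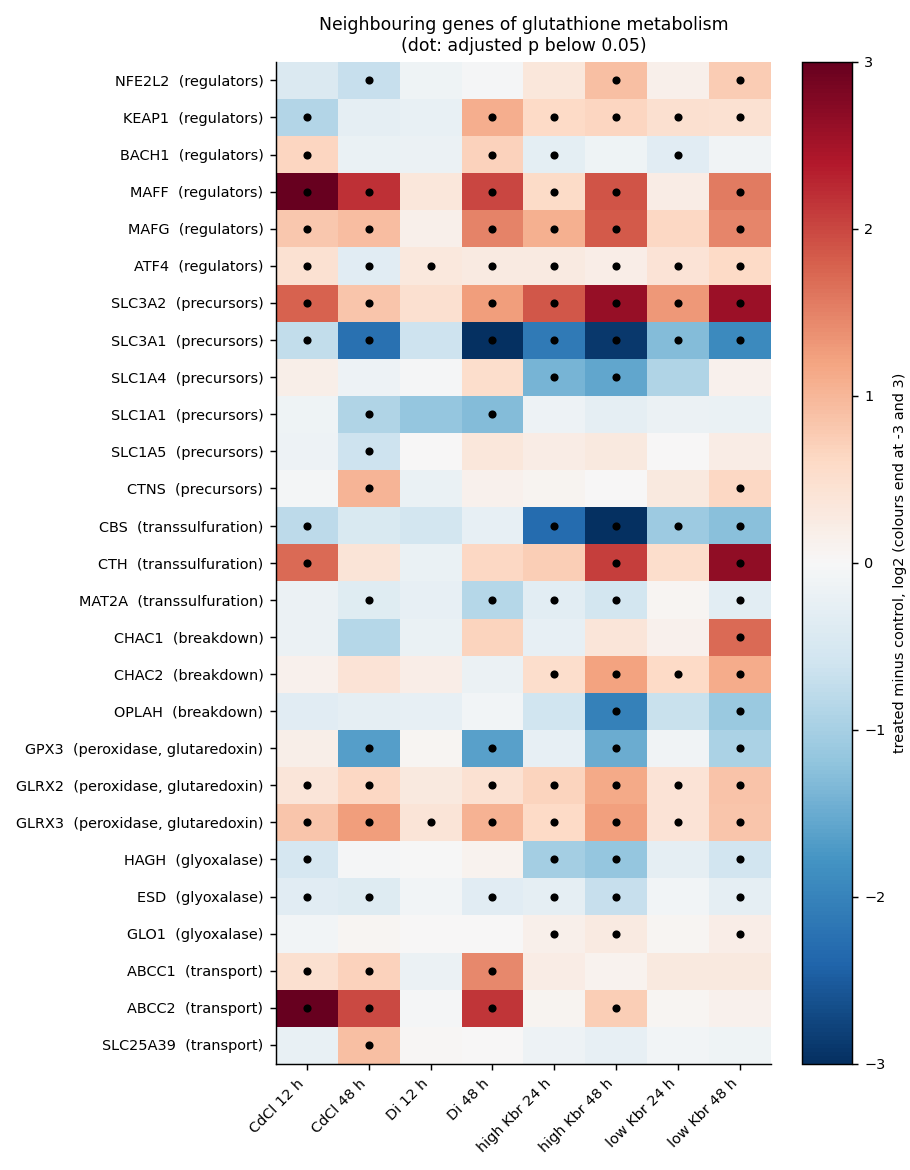
Log2 difference from control (colour; red higher, blue lower, colours end at -3 and 3) of neighbouring genes (rows, with their list) in the 8 comparisons (columns); dots mark adjusted p below 0.05. MAFF, SLC3A2 and GLRX3 are red and SLC3A1 is blue in nearly every column, and the Di 12 h column holds 2 dots; ABCC2, OPLAH and SLC1A1 have groups below the floor, where colours do not give a size.

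Among themselves the 7 genes fell into those that rose together and those that did not. Over the 36 arrays, each centred on the mean of its set, Pearson's r was 0.90 between GCLC and SLC7A11, 0.86 between GCLC and GCLM, 0.76 between GCLC and GSR and 0.70 between GCLM and SLC7A11. GGCT correlated negatively with GCLC (r = -0.73) and GLRX near 0 with GCLC (r = 0.10). These correlations describe arrays that share groups, controls and scaling, and are given without a test.

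The genes most like each member over the 36 arrays, by the same measure, were IFRD1 (r = 0.98), ATF3 (r = 0.98) and ACBD3 (r = 0.95) for SLC7A11. They were FBXO30, NQO1 and ME1 for GCLM (r = 0.96 each) and BMAL1, NDRG1 and DNMT3B for GCLC (r = 0.95 each). For GSS they were CZIB, CUL7 and NDUFA7 (r = 0.93 to 0.95), and for GGCT they were TMPO, CDCA7 and MCM4 (r = 0.96 to 0.97). GSR was matched less closely, by KIF21A, SELENOI and UGDH (r = 0.84 to 0.88), and so was GLRX, by SGPP2, LMBRD1 and SYNE1 (r = 0.85 to 0.86).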

How the data were processed

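The authors deposited log2 expression values per probe set made with GCRMA, per the submitters' processing notes (version not given in the sources used here); GCRMA subtracts background by sequence, quantile-normalizes all arrays together and compresses low values, so low levels have no order. Probe sets with 1 gene in the platform annotation and a log2 value above 4 on at least 3 arrays were kept, and each gene was read from its brightest one, giving 11092 genes. A model of 12 group means was fitted with limma 3.58.1 in R 4.3.3, with Benjamini-Hochberg adjustment over all genes and a threshold of 0.05. The code was run on simulated data with independent noise on each array and 1 spread per gene. Those data held no deviations shared by same-numbered arrays and no unequal spread of groups, so they do not test the model for either. With 3 arrays a group, array number limits precision, and the labels do not say whether replicates came from separate cultures beyond calling them biological.

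Replicate numbers come from the labels. In the Kbr set all 45 pairs of same-numbered arrays deviated together (r = 0.218 to 0.701) and 18 of 18 arrays lay closest to their own number, so blocked values are given beside results they change. In the CdCl and Di set 8 of 45 pairs did.

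The members and lists were chosen with earlier results of these data known. Named beyond the members are all measured precursor genes and regulators, up to 3 called genes of each other list by size of difference, and the 3 genes most correlated with each member. Settings tried were the filter, variance trend, centring, quantile scaling, mean of probe sets, other probe sets, smaller fits, array weights, the replicate block and leaving out each array. Centring on the genes tested and the single other probe sets were added after seeing the data.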

Additional observations from a re-analysis of the deposited data

Results flagged for a closer look

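The effect of an exposure differed between its times in 10 results, each by limma's test of the difference of differences (values as deposited, later minus earlier time, with adjusted p). Of all genes 24.2% passed this test with CdCl, 29% with Di, 15% with the high dose of Kbr and 4.35% with the low dose. The Kbr calls listed here held with the replicate block. None held in the fits to the Kbr set alone or to the compared groups alone. With CdCl the effect on SLC7A11 changed by -4.08 ± 0.60 (adjusted p = 2.23e-05) and that on GLRX by -0.70 ± 0.13 (adjusted p = 0.000296). With Di the change was 3.64 ± 0.34 for GCLC (adjusted p = 3.41e-09), 2.86 ± 0.22 for GCLM (adjusted p = 6.45e-11), 2.29 ± 0.22 for GSR (adjusted p = 4.58e-09), -0.51 ± 0.13 for GLRX (adjusted p = 0.00348) and -0.56 ± 0.12 for GGCT (adjusted p = 0.000861). With the high dose of Kbr it was 0.65 ± 0.22 for GCLM (adjusted p = 0.0447) and -0.65 ± 0.17 for GSS (adjusted p = 0.0124), and with the low dose 1.21 ± 0.34 for GCLC (adjusted p = 0.0401). For SLC7A11 with CdCl the treated arrays were at 11.03 to 11.29 at 48 h and 10.89 to 11.25 at 12 h, and the controls at 10.37 to 10.78 at 48 h and 6.21 to 6.69 at 12 h.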

How the results depend on the processing

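Of 74 called results of the 7 genes 57 kept call and direction in every setting tried apart from the 2 added later, of 52 not called 31 stayed so, and 0 called results reversed. Numbers of the 7 genes called changed as follows. The share of all genes called under each setting is not given in this section, so these counts do not set the 7 genes apart from others. Smaller fits have fewer arrays, and for the other settings the cause was not tested. Without a filter on low values 1 gene changed its effect over time with the high dose of Kbr and 0 with the low dose, and 0 passed between Kbr controls. The variance trend gave 2 between Kbr controls, and quantile scaling and the mean of probe sets gave 1 each for the change with the high dose. The fit to 1 set gave 5 for CdCl at 48 h, 3 for the low dose at 24 h and 0 for the doses at 24 h, both Kbr changes and the Kbr controls. The fit to the compared groups gave 3 for the low dose at 24 h, 1 for the doses at 48 h and 0 for the doses at 24 h, both Kbr changes and the Kbr controls. Array weights gave 5 for CdCl at 48 h, 2 for Di at 12 h, 5 for the CdCl change and 2 for the low-dose change.

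With the replicate block 5 genes passed between doses at 24 h, 3 for the low-dose change and 2 between Kbr controls, and the excess of GCLM over GCLC kept its values of 0.94, 0.53, 0.97 and 0.83 but not its calls (exact permutation within pairs, adjusted p = 0.0625, 0.0938, 0.0625 and 0.0833). In the CdCl and Di set, whose numbers do not pair, the block also brought in GSS with Di at 48 h, GGCT for the CdCl change, SLC7A11 for the Di change and GCLC between controls; it removed none of the called members. Leaving out 1 array gave 3 to 5 genes for the low dose at 24 h, 0 to 3 between doses at 24 h, 0 to 3 for the high-dose change, 0 to 2 for the low-dose change, 0 to 2 between Kbr controls, and an excess of 0.60 to 1.02 for the low dose. Signal over background limits GGT1, the dimmest probe set of SLC7A11, ABCC2, OPLAH and SLC1A1.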
